A study of Mus musculus with 48 samples.

Results

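The 40 genes described here are a cell cycle gene module of DNA replication and mitosis, named by gene symbol, and were read in the platform's probe table as the brightest probe set of each gene by mean log2 signal over all arrays. Of the 40, 39 had a probe set under their symbol, against 18193 genes with 1 symbol on the array. Ccnb1 (cyclin B1) had none in the probe table used, so it has no signal here and enters only the count of promoter letters. The kinase gene Aurka had a mean of 8.17 for its brighter probe set, near the lower limit of the signal (8.13), and exceeded the array median on too few arrays to be tested. The other 38 were tested, 22 of them as S phase genes and 16 as mitosis genes.

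RNA was measured in cell lines of embryonic fibroblasts, the connective tissue cells of the embryo, from littermates of embryonic day 14.5 on a mixed 129/B6 background. The KO line (Zfp36 -/-) lacks an intact Zfp36, the gene of tristetraprolin, a protein that binds AU-rich mRNA and speeds its decay, and the WT line is Zfp36 +/+. Cells kept for 16 h in 0.5% serum were stimulated for 90 min with 10% serum and then exposed to actinomycin D, a drug that blocks transcription. They were sampled after 0, 30, 60, 90 and 120 min of the drug, 0 min being serum alone. The labels conflict on the dose of the drug, which is 5 ug/ml by the study's design text but 0.5 ug/ml by the names of the samples. The KO groups held 4 arrays at 0 min (none from experiment 5), 5 at 30 min, 4 at 60 min (none from experiment 4), 5 at 90 min and 5 at 120 min, and the WT groups held 5 arrays at each time, 48 arrays in all. Each sample joined 3 dishes, and the experiment was run on 5 days with both lines side by side. By the labels each genotype appears to be 1 line, so a difference between KO and WT is a difference between 2 lines, in which the effect of Zfp36 and any other difference between the lines cannot be told apart. Repeat experiments of 1 line are the replicates. The fit on single arrays holds no term for the experiment. For the mean over the 5 times and for slopes, its errors and p-values count the arrays of 1 experiment as separate replicates.

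Values are log2 signals, with array medians between 8.47 and 8.56, and a fold change near the lower limit is compressed. The brightest probe set for Zfp36 gave 9.51 ± 0.16 (SD, n = 4) in KO and 9.86 ± 0.16 (SD, n = 5) in WT at 0 min. It therefore detected RNA in both lines and, since the sources used here do not place it relative to the disruption, it checks no label. Of 9 fibroblast genes tested at 0 min, Pdgfra was higher in KO (10.43 in KO and 9.25 in WT, a difference of 1.18 ± 0.10, SE), Pdgfrb (10.50 in KO and 10.76 in WT) and Vim (13.09 in KO and 13.25 in WT) were lower, and the other 6, among them Col1a1 (12.24 in KO and 12.23 in WT), did not pass the test. The tenth, Thy1, was near the lower limit in both lines. Over the whole list of 10 fibroblast genes the mean per array was 11.25 to 11.49 in KO and 11.16 to 11.39 in WT. The lists for epithelium, muscle, endothelium and blood averaged 8.17 to 8.58 in KO and 8.18 to 8.67 in WT. The list for cartilage averaged 8.63 to 9.03 in KO and 8.70 to 9.15 in WT, with Sox9 at 10.32 in KO and 10.16 in WT at 0 min, and none of its 4 genes passed the test. Of 5 neural markers, Tubb3 was higher in KO at 0 min by 0.86 ± 0.08 (SE). Map2 (-0.24), Nes (-0.02) and Sox2 (0.11) did not pass the test, and Gfap was not tested. The neural list averaged 9.02 to 9.19 in KO and 8.89 to 9.10 in WT. The part of Pdgfra, Tubb3 or the other markers in the results below was not tested.

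As background, replication origins are licensed in G1, when Cdc6 and Cdt1 load the Mcm2 to Mcm7 helicase ring. Geminin (Gmnn) is an inhibitor of Cdt1. E2F factors, held in check by pocket proteins of the retinoblastoma family until cyclin E and Cdk2 act, then drive the genes for nucleotide supply and for DNA polymerases. Genes for mitosis, among them Ccna2, Cdk1, Plk1 and Top2a, come on later, and many carry the CHR element bound by the DREAM and MMB complexes. Fibroblasts leave the cycle when serum is withdrawn and re-enter it when serum is returned.

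The E2F, CHR and CCAAT letters were counted in the members' promoters, and those printed below are shown because each holds an element of its class and its gene differed most between the lines among such members. In RefSeq promoters of build GRCm38.p6, from 250 bases before to 50 bases after the gene start, 35 of the 40 members had an entry. The E2F letters TTTCCCGC, TTTGGCGC or TTTCGCGC, on either strand, stood in 9 of 19 S phase members (47.4%) and in 1 of 16 mitosis members (6.25%), against 1.91% of all 27025 genes with a promoter. The CHR letters TTTGAA stood in 2 of 19 S phase members (10.5%) and in 10 of 16 mitosis members (62.5%), against 18.1% of all genes. The CCAAT letters, which can share bases with the E2F letters, stood in 10 of 19 S phase members (52.6%) and in 13 of 16 mitosis members (81.2%), against 37.9% of all genes. A match describes these letters in this window and shows no binding. Capitals mark every match to the E2F, CHR or CCAAT letters, and the sequences run 5′ to 3′ on the gene's strand.
Cdt1, chr8:122567765-122568064, plus strand: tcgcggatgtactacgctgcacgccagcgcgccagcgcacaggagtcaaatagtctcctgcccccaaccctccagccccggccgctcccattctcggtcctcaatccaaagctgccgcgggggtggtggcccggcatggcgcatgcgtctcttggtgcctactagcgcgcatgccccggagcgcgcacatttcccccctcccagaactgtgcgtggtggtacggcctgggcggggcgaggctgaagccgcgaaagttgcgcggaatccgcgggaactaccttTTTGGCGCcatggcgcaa
Mcm7, chr5:138171834-138172133, minus strand: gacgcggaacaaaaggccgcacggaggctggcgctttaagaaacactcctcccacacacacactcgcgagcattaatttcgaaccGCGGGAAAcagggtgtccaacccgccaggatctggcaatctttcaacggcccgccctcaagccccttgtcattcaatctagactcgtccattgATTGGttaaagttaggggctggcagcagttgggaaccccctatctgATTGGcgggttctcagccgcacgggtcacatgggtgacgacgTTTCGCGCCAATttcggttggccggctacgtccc
Mcm5, chr8:75109259-75109558, plus strand: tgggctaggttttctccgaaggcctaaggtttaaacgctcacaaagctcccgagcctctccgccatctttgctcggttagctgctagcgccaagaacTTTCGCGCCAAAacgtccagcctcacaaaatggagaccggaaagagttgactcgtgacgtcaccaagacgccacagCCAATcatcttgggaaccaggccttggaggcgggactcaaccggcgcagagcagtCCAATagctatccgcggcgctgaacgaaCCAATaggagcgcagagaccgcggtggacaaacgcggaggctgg
Top2a, chr11:99024140-99024439, minus strand: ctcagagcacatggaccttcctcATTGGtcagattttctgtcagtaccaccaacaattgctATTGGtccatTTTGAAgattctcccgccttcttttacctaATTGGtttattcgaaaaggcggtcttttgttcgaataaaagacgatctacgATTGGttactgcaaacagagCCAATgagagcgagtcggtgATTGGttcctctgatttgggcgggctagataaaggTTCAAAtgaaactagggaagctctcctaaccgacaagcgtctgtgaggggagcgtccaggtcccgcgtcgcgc
Mki67, chr7:135716330-135716629, minus strand: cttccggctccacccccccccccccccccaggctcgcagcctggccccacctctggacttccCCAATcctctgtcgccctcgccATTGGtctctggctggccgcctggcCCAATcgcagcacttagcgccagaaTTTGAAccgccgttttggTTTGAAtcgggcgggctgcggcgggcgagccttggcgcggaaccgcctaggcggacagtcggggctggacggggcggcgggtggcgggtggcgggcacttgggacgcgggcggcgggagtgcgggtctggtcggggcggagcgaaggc
Cdk1, chr10:69352863-69353162, minus strand: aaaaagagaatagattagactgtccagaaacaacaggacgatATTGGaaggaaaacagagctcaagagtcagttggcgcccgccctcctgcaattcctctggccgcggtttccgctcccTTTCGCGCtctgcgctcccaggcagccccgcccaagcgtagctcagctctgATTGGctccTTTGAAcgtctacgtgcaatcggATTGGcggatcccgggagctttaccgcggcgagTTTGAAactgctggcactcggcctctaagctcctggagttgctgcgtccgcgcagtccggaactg

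Replication and mitosis genes were higher in KO than in WT. For the mean over the 5 times, limma with Benjamini-Hochberg adjustment over 27500 probe sets called 30 of 38 members higher in KO and 0 lower, where 27.3% of all probe sets tested were called higher and 25.6% lower. The median difference of the members was 0.24 on the log2 scale, against -0.01 over all probe sets. Before the drug, at 0 min, 12 of 38 members were called higher and 0 lower (13.4% and 11.9% of all probe sets), 9 of them S phase genes and 3 mitosis genes. At 30 min 17 were called higher (14.5% of all), at 60 min 8 (10.8%), at 90 min 14 (13.8%) and at 120 min 18 (18.7%), with 0 lower at each time. With the experiment as a block, the counts were 28 at 0 min (17.9% of all), 29 at 120 min (22.8%) and 34 for the mean over the 5 times (29.7%). In that blocked fit Tyms (thymidylate synthase) was called lower in KO, by 0.06 for the mean and 0.16 at 120 min. In the fit on single arrays, the second Tyms probe set gave 0.002 for the mean and was higher in KO at 0 min, by 0.11 (adjusted p = 0.028 by limma). Every KO array lay above every WT array at 0 min for 8 members, all of them S phase genes, against 9.62% of all probe sets. The 8 were Mcm2, Mcm3, Mcm4, Mcm7, Cdt1, Lig1, E2f1 and Rbl1. At 120 min the count was again 8 (12.7% of all), with Ccna2 and Cdk2 in place of Mcm7 and Lig1.

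**Figure D1:**
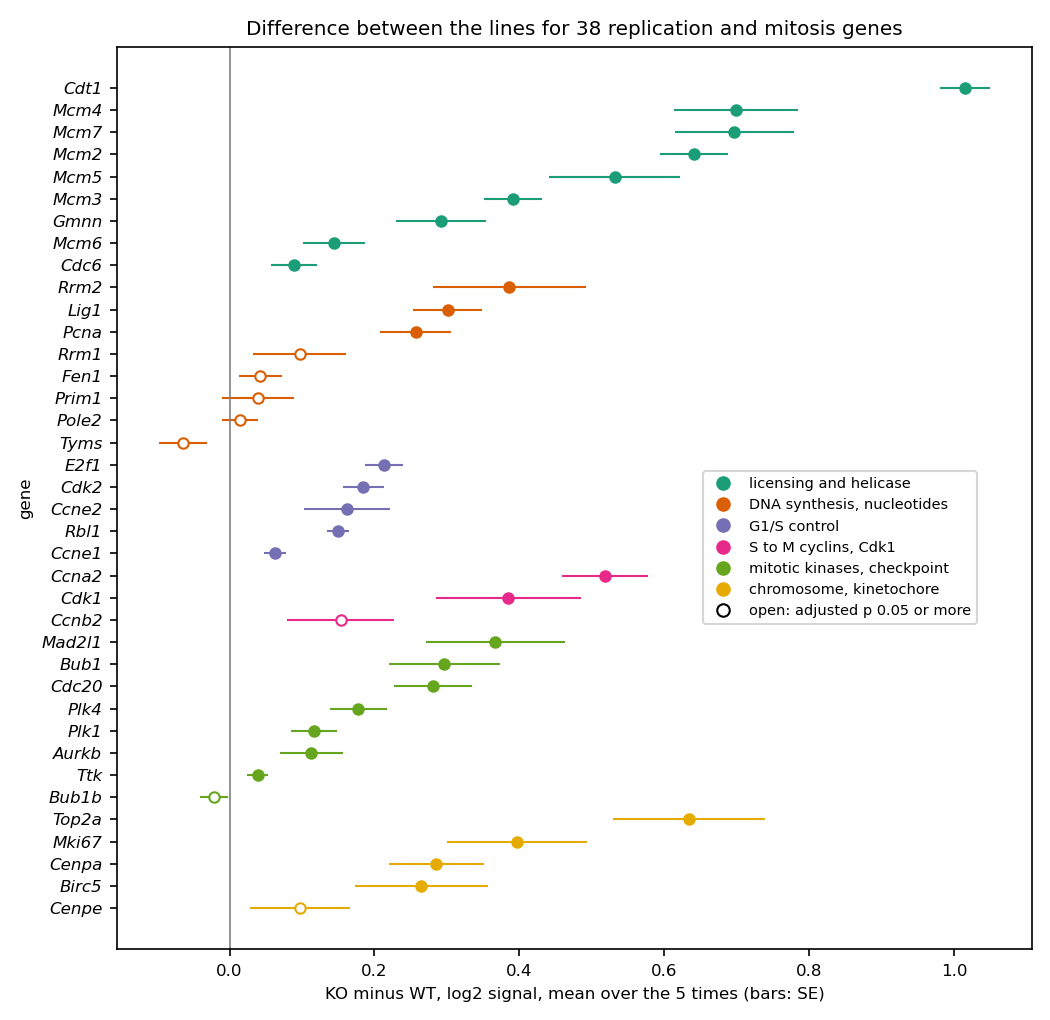
Difference in log2 signal between KO and WT, averaged over the 5 times, for the 38 members tested, with SE bars, in 6 role groups; filled points have an adjusted p under 0.05 by limma. Cdt1 stands at 1.02, Mcm4, Mcm7, Mcm2 and Top2a lie above 0.6, and the open points include 5 of the 8 genes of DNA synthesis.

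The licensing and helicase genes had the largest median difference of the 6 role groups. All 9 were called higher in KO for the mean over the 5 times (27.3% of all probe sets), and 6 of 9 at 0 min (13.4% of all), with a median difference of 0.53 for the mean and 0.61 at 0 min. Cdt1, the loader of the helicase, had 10.29, 10.34, 10.47 and 10.41 in KO at 0 min in experiments 1 to 4, against 9.26, 9.28, 8.92, 9.12 and 9.33 in WT in experiments 1 to 5. No KO array overlapped a WT array, and the difference was 1.19 ± 0.08 (SE), or 2.29-fold, with an adjusted p of 4.0e-16 by limma. Mcm7 had 10.36, 10.34, 10.65 and 10.72 in KO, against 9.60, 9.52, 9.48, 9.70 and 10.20 in WT. The WT array of experiment 5 was the highest of its group and still lay under the lowest KO array. The difference for Mcm7 was 0.82 ± 0.19 (SE, adjusted p = 0.00083 by limma). Mcm4 had 9.60, 9.50, 9.64 and 10.07 in KO and 9.00, 8.88, 8.75, 9.20 and 9.39 in WT, a difference of 0.66 ± 0.20 (SE, adjusted p = 0.010 by limma). Its KO array of experiment 4 stood above the other KO arrays. Mcm2 had 9.34, 9.36, 9.43 and 9.65 in KO and 8.84, 8.72, 8.67, 8.87 and 8.96 in WT, a difference of 0.63 ± 0.11 (SE, adjusted p = 9.8e-06 by limma).

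The differences of the other 3 helicase subunits ranged from 0.14 to 0.61 at 0 min. Mcm3 differed by 0.42 ± 0.09 (SE), with 8.98, 9.09, 9.09 and 9.31 in KO and 8.68, 8.59, 8.61, 8.72 and 8.88 in WT, without overlap. Mcm5 had 9.35, 9.68, 9.96 and 10.09 in KO and 9.05, 8.94, 9.10, 9.13 and 9.58 in WT, where the WT array of experiment 5 lay above the KO array of experiment 1. Its difference was 0.61 ± 0.21 (SE, adjusted p = 0.027 by limma). Mcm6 had 10.25, 10.06, 10.22 and 10.46 in KO, against 10.20, 10.02, 10.04, 10.03 and 10.27 in WT. These groups overlapped, the difference of 0.14 ± 0.10 (SE) did not pass the test at 0 min (adjusted p = 0.36 by limma), and the mean over the 5 times, 0.14 ± 0.04, did. Gmnn, the inhibitor of Cdt1, differed by 0.29 ± 0.06 (SE) for the mean over the 5 times, and Cdc6, which loads the helicase with Cdt1, by 0.09 ± 0.03. Cdc6 was above WT in 3 of 5 experiments and lost its call in the paired fit on 1 mean per line and experiment (adjusted p = 0.11 by limma).

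Among 8 genes of DNA synthesis and nucleotide supply, most did not pass the test. At 0 min 1 of 8 was called higher in KO, Lig1, which joins the fragments of the lagging strand, a share close to the 13.4% of all probe sets. For the mean over the 5 times 3 of 8 were called, Lig1, Pcna and Rrm2, against 27.3% of all. Lig1 had 8.88, 8.83, 8.95 and 9.20 in KO at 0 min and 8.59, 8.51, 8.60, 8.59 and 8.76 in WT, a difference of 0.36 ± 0.11 (SE, adjusted p = 0.012 by limma). Pcna, the sliding clamp of the polymerases, had 10.80, 10.97, 10.99 and 11.14 in KO and 10.86, 10.83, 10.73, 10.76 and 10.76 in WT. The groups overlapped at 0 min through the KO array of experiment 1, and the mean over the 5 times differed by 0.26 ± 0.05 (SE, adjusted p = 1.7e-05 by limma). Rrm2, the regulated subunit of ribonucleotide reductase, had 8.89, 9.05, 9.06 and 9.94 in KO and 8.91, 8.79, 8.69, 9.00 and 9.09 in WT. Its KO value in experiment 4 stood far above the others, and the mean over the 5 times differed by 0.39 ± 0.11 (SE, adjusted p = 0.0019 by limma). Rrm1, the constant subunit, had 9.68, 9.69, 9.88 and 9.97 in KO and 9.65, 9.70, 9.69, 9.76 and 9.94 in WT, and its mean difference of 0.10 ± 0.06 (SE) did not pass the test (adjusted p = 0.21 by limma). Prim1 (primase), Pole2 (a subunit of polymerase epsilon), Fen1 (the flap endonuclease) and Tyms had mean differences of 0.04, 0.01, 0.04 and -0.06, none past the test.

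Among 5 genes of G1/S control, 2 were called higher in KO at 0 min (13.4% of all) and all 5 for the mean over the 5 times (27.3% of all), all by small amounts. E2f1, Ccne1 and Rbl1 had mean signals of 8.62, 8.65 and 8.71, little above the array medians, so their differences may be compressed. E2f1, an activating E2F factor, had 8.63, 8.65, 8.57 and 8.80 in KO at 0 min and 8.53, 8.52, 8.34, 8.54 and 8.52 in WT. The groups did not overlap and the difference was 0.17 ± 0.06 (SE, adjusted p = 0.030 by limma). Rbl1, the pocket protein p107, differed by 0.19 ± 0.04 (SE) at 0 min. Cdk2, the kinase partner of cyclin E, had 9.11, 9.09, 9.06 and 9.25 in KO at 0 min against 9.21, 9.31, 8.81, 9.16 and 9.05 in WT, with overlap and a difference of 0.02 ± 0.06 (SE, adjusted p = 0.87 by limma). At 120 min it had 9.28, 9.41, 9.20, 9.37 and 9.23 in KO and 9.00, 9.04, 9.01, 9.07 and 9.01 in WT. By then every KO array lay above every WT array, with a difference of 0.27 ± 0.06 (SE, adjusted p = 0.00042 by limma). The cyclin E genes Ccne1 and Ccne2 differed by 0.06 ± 0.02 and 0.16 ± 0.06 (SE) for the mean over the 5 times.

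Of the 16 mitosis genes, 3 were called higher in KO at 0 min (Ccna2, Plk1 and Top2a), not far above the 13.4% of all probe sets, 7 at 120 min (18.7% of all) and 13 for the mean over the 5 times (27.3% of all). With the experiment as a block, 13 of 16 were called at 0 min and 12 of 16 at 120 min (17.9% and 22.8% of all). The S phase counts in that fit were 15 and 17 of 22. The block compares arrays of the same replicate number, which was taken as the day and is not given as such by the sample titles. At 0 min the deviations of such KO and WT arrays from their group means correlated at -0.095, 0.053, 0.062 and 0.283 in experiments 1 to 4. Ccna2, cyclin A2, which acts in S phase and at entry into mitosis, had 8.99, 9.13, 9.50 and 9.71 in KO at 0 min and 8.71, 8.69, 8.75, 8.82 and 9.09 in WT. The arrays overlapped only through WT experiment 5 and KO experiment 1, and the difference was 0.52 ± 0.14 (SE, adjusted p = 0.0031 by limma). Top2a, the topoisomerase that untangles sister chromatids, had 9.68, 9.82, 10.14 and 10.50 in KO and 9.24, 9.23, 9.23, 9.29 and 9.73 in WT. Its WT array of experiment 5 stood apart from the other 4 and lay above the lowest KO array, with a difference of 0.69 ± 0.24 (SE, adjusted p = 0.030 by limma). Cdk1, the kinase that drives mitosis, had 9.35, 9.41, 9.81 and 10.15 in KO and 9.26, 9.24, 9.26, 9.39 and 9.72 in WT. It did not pass the test at 0 min (0.30 ± 0.23, SE), passed it there with the experiment as a block (0.43 ± 0.09), and passed for the mean over the 5 times (0.38 ± 0.10, adjusted p = 0.0010 by limma). Ccnb2, a B cyclin, differed by 0.15 ± 0.07 (SE) for that mean and did not pass the test (adjusted p = 0.080 by limma).

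Mad2l1, Bub1, Cdc20, Mki67 and Cenpa passed the test at 120 min and not at 0 min without the block, though for none of them was the difference between those times itself called. With the experiment as a block all 5 passed at 0 min too, with differences of 0.46, 0.30, 0.21, 0.40 and 0.32. Mad2l1, a checkpoint protein, had 9.10, 9.35, 9.51, 9.91 and 10.04 in KO at 120 min in experiments 1 to 5, and 8.80, 8.86, 8.72, 9.17 and 9.67 in WT. The WT array of experiment 4 lay above the KO array of experiment 1, and that of experiment 5 above the KO arrays of experiments 1 to 3. The difference was 0.53 ± 0.21 (SE, adjusted p = 0.046 by limma). Bub1, a checkpoint kinase, had 8.77, 8.96, 9.10, 9.56 and 9.54 in KO at 120 min and 8.49, 8.57, 8.66, 8.82 and 9.12 in WT, a difference of 0.45 ± 0.17 (SE, adjusted p = 0.034 by limma). Cdc20, the activator of the anaphase-promoting complex, had 9.01, 9.06, 9.21, 9.46 and 9.48 in KO at 120 min and 8.80, 8.84, 8.80, 8.88 and 9.13 in WT. Only WT experiment 5 lay above any KO array, and the difference was 0.35 ± 0.12 (SE, adjusted p = 0.019 by limma). Mki67, the source of the Ki-67 proliferation antigen, had 9.27, 9.34, 9.64, 10.18 and 10.19 in KO at 120 min and 8.83, 9.04, 9.12, 9.10 and 9.58 in WT. It differed by 0.59 ± 0.21 (SE, adjusted p = 0.027 by limma), and its highest KO arrays were again those of experiments 4 and 5. Cenpa, the centromeric histone, had 9.56, 9.75, 9.98, 10.10 and 10.20 in KO at 120 min and 9.27, 9.43, 9.57, 9.57 and 9.92 in WT, a difference of 0.36 ± 0.14 (SE, adjusted p = 0.047 by limma). Plk4 (centriole copying), Birc5 (survivin, of the chromosomal passenger complex), Aurkb (its kinase) and Ttk (the checkpoint kinase Mps1) had mean differences over the 5 times of 0.18, 0.26, 0.11 and 0.04, each called higher. Birc5, Aurkb and Ttk lost that call in the paired fit on 1 mean per line and experiment (adjusted p = 0.063, 0.059 and 0.080 by limma). Bub1b (the checkpoint protein BubR1) and Cenpe (a kinetochore motor) had -0.02 and 0.10 and did not pass the test, though Cenpe did in the paired fit (0.14 ± 0.05, SE, adjusted p = 0.043 by limma).

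The size of the difference depended on the experiment. With all times of an experiment averaged, the median KO minus WT difference of the 38 members was 0.06, 0.12, 0.24, 0.54 and 0.30 in experiments 1 to 5, where the median over all probe sets stayed between -0.02 and 0.005. KO was above WT for 27, 35, 34, 37 and 38 of the 38 members in those experiments. The mitosis genes averaged 8.98, 9.07, 9.28, 9.52 and 9.60 in KO and 8.93, 8.91, 8.94, 8.98 and 9.26 in WT. The S phase genes averaged 9.20, 9.22, 9.32, 9.56 and 9.55 in KO and 9.02, 8.97, 8.99, 9.09 and 9.24 in WT. KO thus had its higher levels in experiments 4 and 5, and WT in experiment 5. Top2a moved the most of the mitosis genes named, with differences of 0.29, 0.53, 0.75, 1.16 and 0.67 in experiments 1 to 5. For Cdt1 the differences were 0.93, 0.96, 1.09, 1.12 and 0.99, and for Mcm2 0.56, 0.66, 0.74, 0.77 and 0.55, so for both genes the smallest of the 5 differences exceeded the range of the 5. In 26 members KO was above WT in 5 of 5 experiments (23.4% of all probe sets) and in 0 it was below (21.7%). With 1 mean per line and experiment, paired by experiment and fitted with limma, 27 members were called higher and 0 lower (21.6% and 18.5% of all). Against the fit on single arrays, Cdc6, Aurkb, Ttk and Birc5 lost their call there and Cenpe gained one. Without experiment 3 the count at 0 min was 5 in place of 12, and without experiment 4 it was 6. Mcm4, Mcm5, Lig1, E2f1, Ccna2, Plk1 and Top2a lost their call at 0 min in either case. At 120 min the count was 9 in place of 18 in either case, and Mcm5, Lig1, Ccna2, Bub1, Mad2l1, Cdc20, Top2a, Mki67 and Cenpa lost their call. These fits have fewer arrays, and their shares of all probe sets called are not given here. A fall particular to the members and a fall in calls at large cannot be told apart from these counts.

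**Figure D2:**
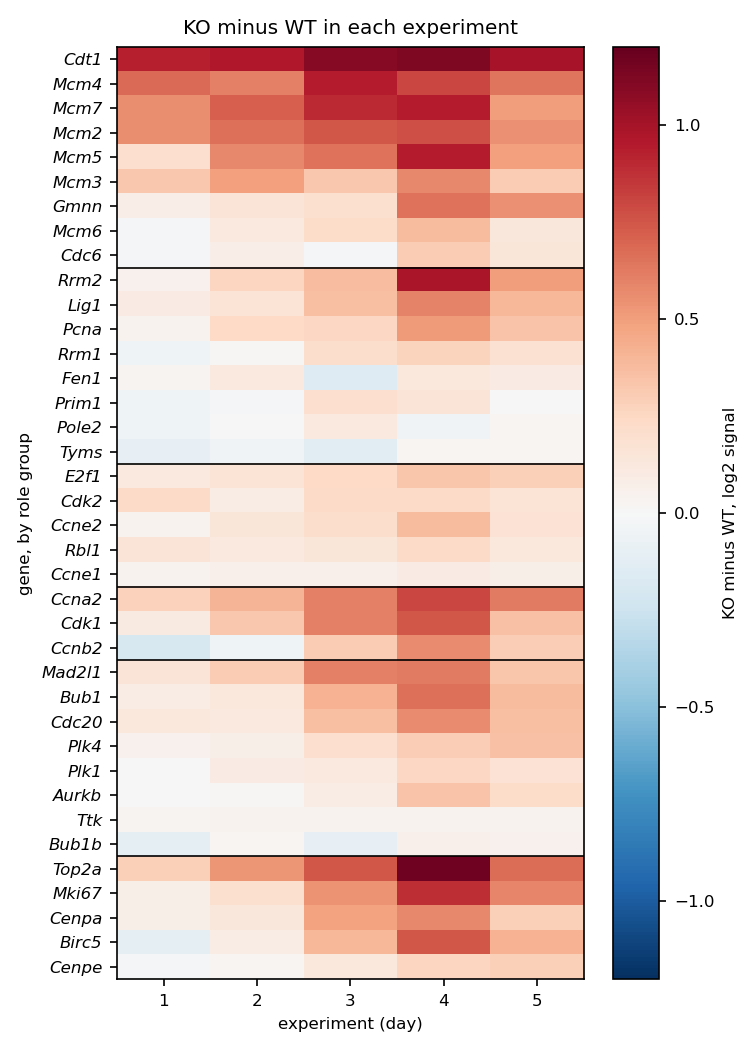
KO minus WT log2 signal in each of the 5 experiments (columns), averaged over the times measured in both lines, for the 38 members (rows, by role group, split by black lines); red is higher in KO. Cdt1 and Mcm2 are red in every column, and the mitosis genes are palest in experiment 1 and darkest in experiment 4.

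**Figure D3:**
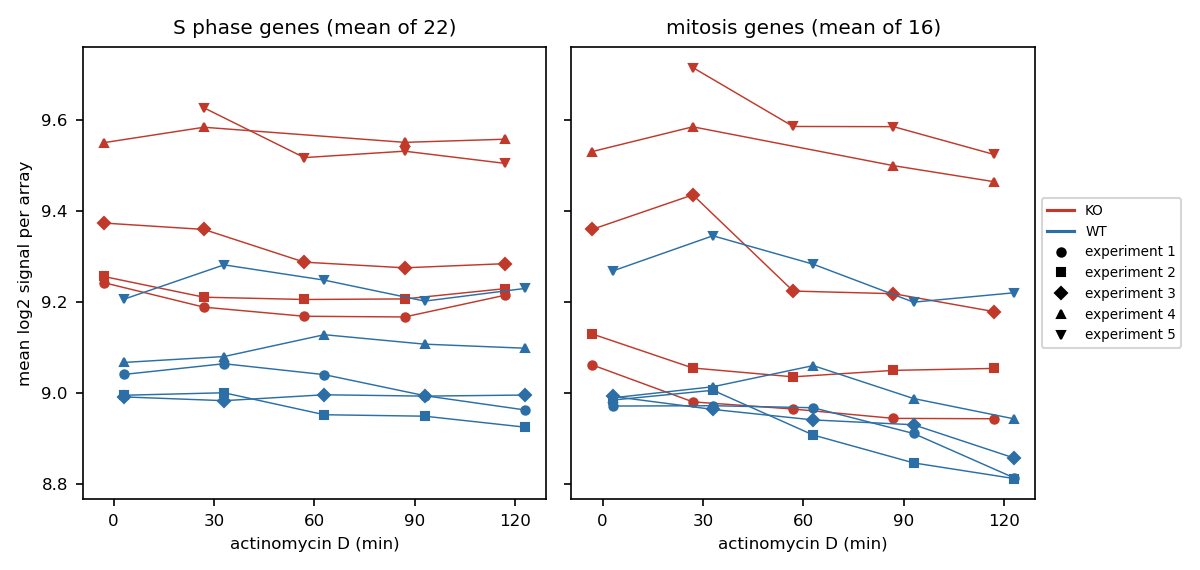
Mean log2 signal of the 22 S phase genes (left) and the 16 mitosis genes (right) on each array against minutes of actinomycin D, with 1 line per experiment, KO in red and WT in blue (KO points are moved left and WT points right for legibility). The KO lines of experiments 4 and 5 lie above 9.4 in both panels, and stay above the other KO experiments at every time measured.

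With transcription blocked, 35 of 38 members did not pass the test of a change in KO, and 35 of 38 in WT. In KO 3 members were called lower at 120 min than at 0 min and 0 higher (10.6% and 11.9% of all probe sets), and in WT 3 were called lower and 0 higher (14.0% and 10.0%). Cdt1 and Ccna2 fell in both lines. Cdt1 had 9.04, 9.12, 9.00, 9.26 and 9.28 in KO at 120 min and 8.30, 8.26, 8.31, 8.40 and 8.47 in WT, where the KO change over 120 min was -1.24 ± 0.08 and the WT change -0.83 ± 0.08 (SE). Ccna2 had 8.59, 8.77, 8.76, 9.06 and 9.04 in KO at 120 min and 8.53, 8.38, 8.30, 8.45 and 8.56 in WT, with changes of -0.49 ± 0.14 in KO and -0.37 ± 0.13 in WT (SE). The Ccna2 call was lost in KO without experiment 3 (-0.42) or 4 (-0.42), and in WT without experiment 2, 3, 4 or 5 (-0.33 to -0.38). Plk1, a kinase of mitotic entry and exit, fell by 0.31 in KO, with 8.68, 8.57, 8.69, 8.67 and 8.70 at 120 min, and had a change of -0.07 ± 0.07 (SE) in WT. Cdc20 fell by 0.43 in WT, with 9.28, 9.35, 9.27, 9.18 and 9.51 at 0 min, and had a change of -0.22 ± 0.13 (SE) in KO. The test of the difference in change between KO and WT did not pass for Plk1 or Cdc20.

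Since the levels differed by experiment and KO had no array of experiment 5 at 0 min, the changes were also fitted with the experiment as a block within each line, an alternative chosen after seeing the data. In KO 9 members were then called lower and 4 higher (14.9% and 21.2% of all), and in WT 6 lower and 3 higher (17.8% and 19.3%). Cdt1, Ccna2, Cdk1, Cdc20 and Top2a were lower in both lines. In KO Mcm7, Gmnn, Plk1 and Aurkb were lower too, and in WT Mki67. Cdk1 fell by 0.30 in KO and by 0.34 in WT. Top2a fell by 0.38 in KO and by 0.24 in WT. Cenpa was higher at 120 min than at 0 min in both lines, by 0.20 ± 0.05 in KO and 0.15 ± 0.05 in WT (SE), as were Mcm4, Cdk2 and E2f1 in KO and Mcm3 and Lig1 in WT. Second probe sets, in the fit on single arrays, turned the sign for Cenpa (-0.24) and Cdk2 (-0.06) in KO and Top2a (0.22) in WT. They kept it in both lines for Cdt1, Ccna2 and Cdc20, in KO for Mcm4, Mcm7, E2f1, Aurkb and Top2a, and in WT for Mcm3 and Cenpa. With the authors' normalization unstated, whether a higher value at 120 min is a larger amount or a level relative to the other RNAs on the array cannot be told apart.

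**Figure D4:**
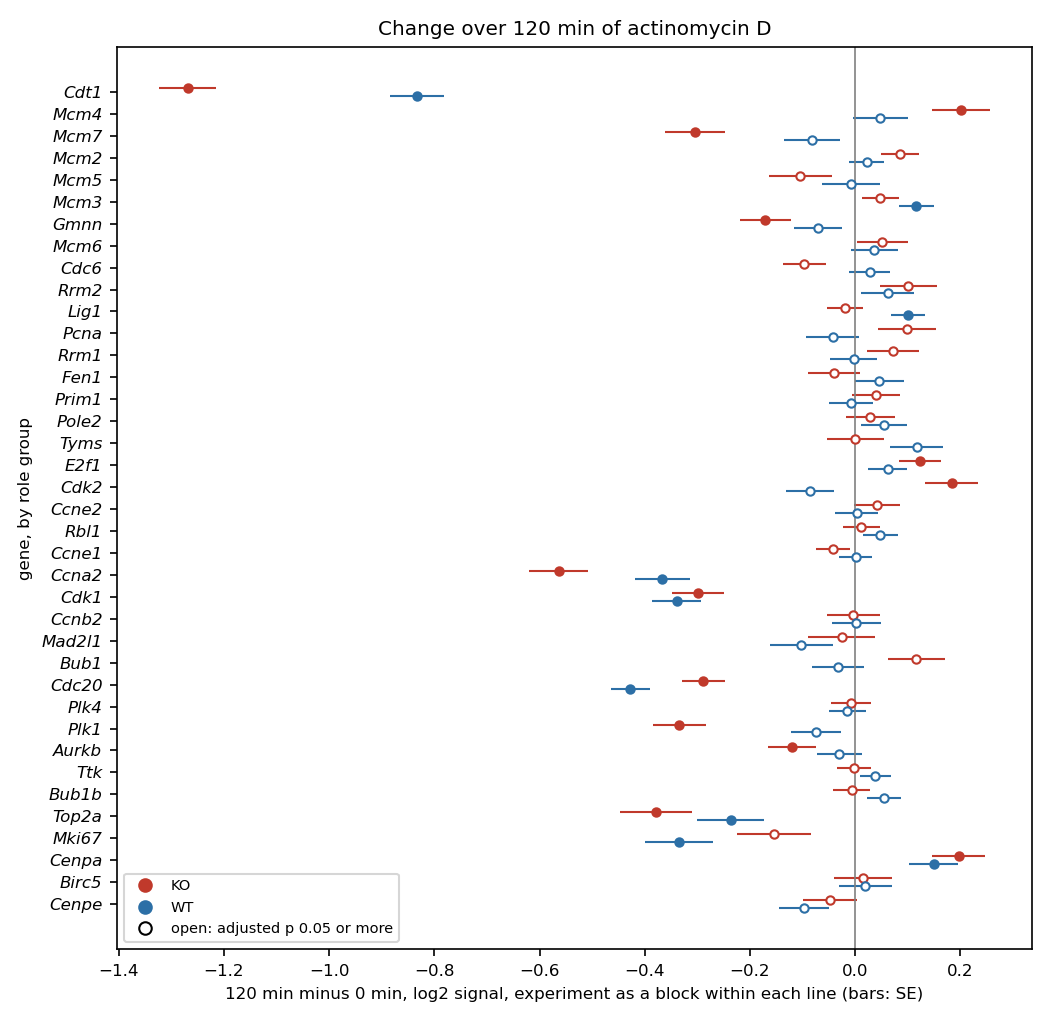
Change in log2 signal from 0 to 120 min of actinomycin D in KO (red) and WT (blue) for the 38 members, fitted with the experiment as a block within each line; bars are SE and filled points have an adjusted p under 0.05 by limma. Cdt1 is farthest left in both lines, at -1.27 in KO and -0.83 in WT, and most other members lie near 0.

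**Figure D5:**
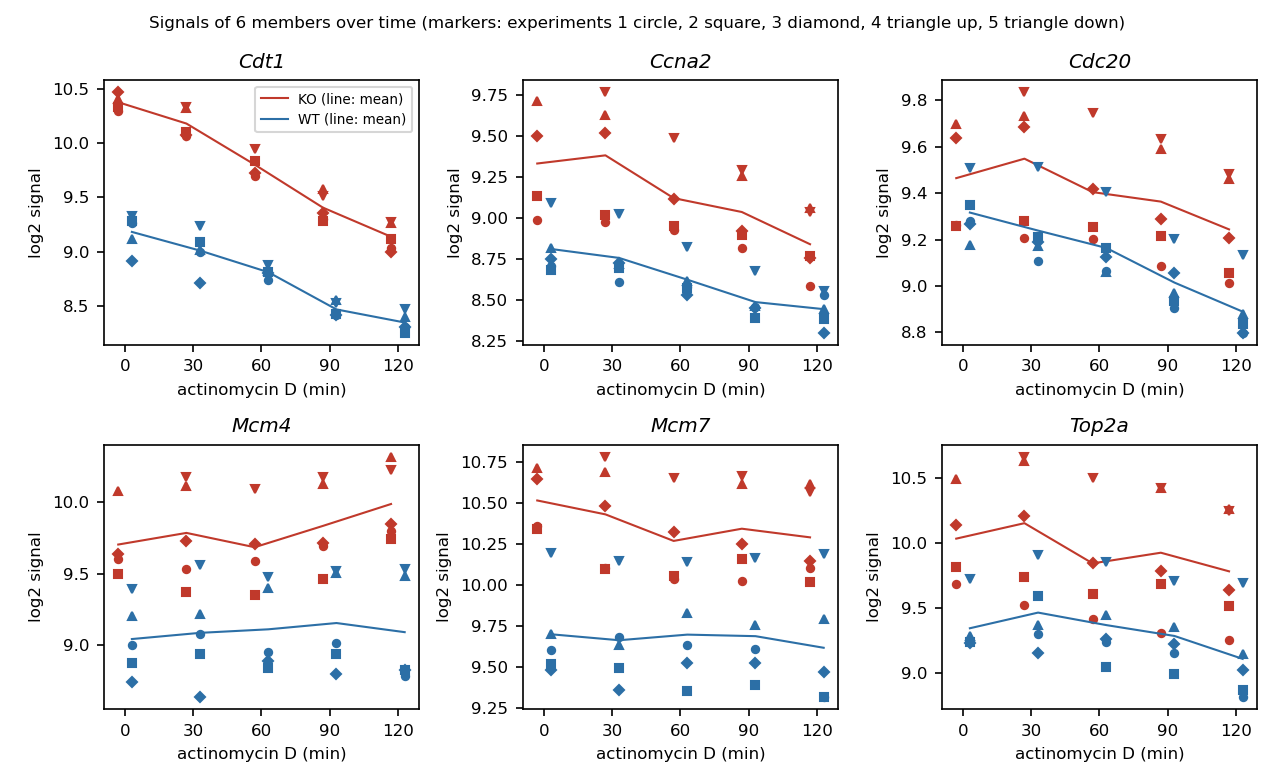
Log2 signal of 6 members on every array against minutes of actinomycin D, KO in red and WT in blue, with lines through the group means and 1 marker shape per experiment. Cdt1 declines in both lines from different levels, Ccna2 and Cdc20 decline more gently, and Mcm4, Mcm7 and Top2a keep KO above WT throughout.

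For the decline itself the lines differed in 1 member. For the change over 120 min, 0 of 38 members were called different between KO and WT by limma (0.553% of all probe sets higher in KO, 0.156% lower). For the slope over all 5 times, Cdt1 alone was called (0.785% of all higher, 0.251% lower). Its group means were 10.38, 10.18, 9.80, 9.41 and 9.14 in KO and 9.18, 9.01, 8.81, 8.47 and 8.35 in WT at 0, 30, 60, 90 and 120 min. The slope was -0.65 ± 0.04 log2 units per hour in KO and -0.44 ± 0.03 in WT (SE), a difference of -0.21 ± 0.05 (SE) with an adjusted p of 0.015 by limma. The WT mean at 120 min lay near the lower limit of the signal, and after subtraction of each array's 5th percentile the slope difference turned to 0.34 (adjusted p = 0.38 by limma). It was also lost without experiment 1, 3 or 4, with adjusted p-values of 0.058, 0.13 and 0.096 by limma. With the experiment as a block, Cdt1 was called for the change (-0.44 ± 0.08, SE) and the slope, and Cdk2 for the slope (0.12 ± 0.03, SE, adjusted p = 0.034 by limma). With that block within each line, the change differed for Cdt1 (-0.44 ± 0.08, SE), Cdk2 (0.27 ± 0.07) and Plk1 (-0.26 ± 0.07), against 3.24% of all probe sets higher and 1.08% lower. The second probe set of Cdk2 gave a slope difference of -0.03 in the fit on single arrays.

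The difference between KO and WT varied with the probe set read. Of the 38 genes, 27 had several tested probe sets; 24 of these had at least 1 called higher in KO for the mean over the 5 times, and 1 had a probe set called lower. That gene was Top2a, whose second probe set gave -0.09 (adjusted p = 0.0074 by limma) where the brightest gave 0.63, and whose mean signal was 8.59, near the array median. Several probe sets give a gene several chances of a call, and the share of all such genes called was not counted. Of single probe sets, 27.3% were called higher and 25.6% lower. The second probe set of Cdt1 gave 0.68 for the mean and a slope difference of -0.23 (adjusted p = 8.6e-07 by limma), and the third gave 0.01 for the mean. For Cdk2 the second probe set gave -0.002 where the brightest gave 0.18, for Bub1 0.02 where it gave 0.30, and for Cenpa 0.05 where it gave 0.29. The reverse was seen in 4 members whose brightest probe set did not pass the test. The second probe set was called higher for Fen1 (0.23, adjusted p = 3.8e-10 by limma), Cenpe (0.19, adjusted p = 0.022) and Pole2 (0.097, adjusted p = 0.031). For Bub1b the second and the third were, by 0.14 and 0.16 (adjusted p = 0.012 and 0.0046 by limma). Of the brightest probe sets, 7 carry the suffix _s_at or _x_at, for probes shared between transcripts or genes. Others, among them those of Cdt1, Cdk2 and Top2a, carry the suffix _a_at, which was not counted.

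Other genes of the pathway were read in the same way, in the fit on single arrays alone. For the mean over the 5 times, 26 of 38 other replication genes tested were called higher in KO and 2 lower, with a median difference of 0.20, where 27.3% of all probe sets were called higher and 25.6% lower. The largest differences were Dbf4, the activator of the Cdc7 kinase (0.66 ± 0.04, SE), Slbp, which binds histone mRNA (0.66 ± 0.03), Gins4 of the GINS complex (0.43 ± 0.02) and the clamp loader subunit Rfc3 (0.42 ± 0.03). Of 51 other mitosis genes tested, 30 were called higher and 0 lower, with a median of 0.10, against the same shares of all. Tpx2, a spindle assembly factor, differed by 0.68 ± 0.06 (SE), the condensin subunit Smc2 by 0.60 ± 0.09, Ect2, which acts in cytokinesis, by 0.57 ± 0.06, and Cks1b, a partner of cyclin-dependent kinases, by 0.52 ± 0.04. Of 25 genes of G1 control, 13 were called higher and 4 lower, again against 27.3% and 25.6% of all. Cdkn2a, the gene of p16Ink4a and p19Arf, differed by 2.06 ± 0.06 (SE), or 4.18-fold, Cdkn1b (p27) by 0.54 ± 0.04, Cdkn1a (p21) by -1.002 ± 0.056 and Rb1 by -0.63 ± 0.03.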

How the data were processed

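RNA was hybridised to Affymetrix mouse genome arrays, per the labels' protocols. The authors deposited 1 log2 signal per probe set and array. The log base was inferred from the values, and the authors' summary and normalization steps are not given in the sources used here. The deposited values were used without further normalization. Of 45101 probe sets, 64 controls were left out and the 27500 above the array median on at least 4 arrays were tested. Groups come from the sample titles. limma 3.58.1 in R 4.3.3 fitted 1 mean per line and time, and a slope per line on time in hours, to all 48 arrays with trend and robust settings. Calls were two-sided at a Benjamini-Hochberg adjusted p under 0.05 over all probe sets. The script was tested on simulated data with independent noise on each array and no effect of the experiment. That test does not cover arrays of 1 experiment moving together.

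The members and gene lists were chosen with earlier results of these data known. Each gene was read by its brightest probe set. Values are printed for Mcm2 to Mcm7, Pcna, Rrm1, Rrm2, Cdc20, the 2 members per role group with the largest mean difference between the lines and the 2 with the largest change over 120 min, and members whose change differed. Other members are given by their mean difference. Of each wider list, the 4 genes with the largest mean difference are named.

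The series text says that each experiment ran both lines on the same day, so the replicate number was taken to pair arrays. Deviations of 23 same-numbered KO and WT pairs correlated at a median of 0.17 (-0.25 to 0.60). Depth does not apply to arrays: their number limits the precision. Alternatives were a replicate block, no filter on dim probe sets, quantile normalization, subtraction of each array's 5th percentile, no trend or robust setting, other probe sets per gene, and leaving out each experiment. A paired fit on 1 mean per line and experiment and a block within each line were chosen after seeing the data.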

Additional observations from a re-analysis of the deposited data

Results flagged for a closer look

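Among 96 sets of arrays of the named members and of the members' means, 8 held a lowest or highest array far from the others of its group by Dixon's test, which by chance happens in about 1 in 20. The WT arrays of experiment 5 were the high ones for Mki67 at 0 min (9.90, others up to 9.43), Top2a at 0 min (9.73, others up to 9.29), Cdc20 at 120 min (9.13, others up to 8.88) and Pcna at 120 min (11.002, others up to 10.73). The mean of the mitosis members was high in the same WT experiment at 0 min (9.27, others up to 8.99). Rrm2 was high in KO experiment 4 at 0 min (9.94, others up to 9.06). E2f1 was low in WT experiment 3 at 0 min (8.34, others from 8.52), and Plk1 was low in KO experiment 2 at 120 min (8.57, others from 8.67).

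The slope of Cdt1 differed between KO and WT by -0.21 ± 0.05 log2 units per hour (SE, adjusted p = 0.015 by limma), with the limits given beside that result.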

How the results depend on the processing

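The counts of members higher in KO rose with the replicate block, to 28 at 0 min (17.9% of all probe sets), 29 at 30 min, 18 at 60 min, 24 at 90 min and 29 at 120 min (22.8%). Shares of all probe sets for the other times, and for the fits with 1 experiment left out, are not given here. Leaving out 1 experiment gave 5 to 12 at 0 min, 9 to 17 at 30 min, 5 to 8 at 60 min, 9 to 15 at 90 min, 9 to 19 at 120 min and 25 to 31 for the mean over the 5 times, the low counts coming without experiment 3 or 4 (at 60 min also without 1 or 2). Counts of members lower in KO reached 1 at 120 min with the replicate block, with quantile normalization and with 1 experiment left out (0 to 1), 1 for the mean with the replicate block or another probe set, and 1 at 90 min with another probe set. For the change over 120 min in KO, the replicate block gave 3 higher and 7 lower, the block within each line 4 higher and 9 lower, quantile normalization and another probe set 1 higher, and all probe sets together 1 higher and 5 lower. For WT, the replicate block gave 5 lower, the block within each line 3 higher and 6 lower, another probe set 1 higher, and leaving out 1 experiment 0 to 1 higher and 2 to 3 lower. For the difference in change, the replicate block, quantile normalization and another probe set gave 1 lower, the block within each line 1 higher and 2 lower, and leaving out 1 experiment 0 to 1 in each direction. For the slope, the replicate block gave 1 higher, the block within each line 1 higher and 2 lower, subtraction of the 5th percentile 0 lower, and leaving out 1 experiment 0 to 1 in each direction. With the second brightest probe set, the difference turned for Cdk2 (-0.011 at 120 min, -0.0023 for the mean), Top2a (-0.15 at 120 min, -0.090 for the mean) and Cenpa (-0.17 at 120 min). The Cdt1 slope difference turned to 0.34 after subtraction of the 5th percentile. The cause was not tested. Of 67 calls of single members, 67 held with the replicate block, 61 without the filter on dim probe sets, 65 with quantile normalization, 65 after subtraction of the 5th percentile and 67 without trend and robust settings, while 44 held without experiment 3 and 43 without experiment 4. Of 50 with a second probe set, 40 held with it. Of 30 calls for the mean over the 5 times, 26 held in the paired fit on 1 mean per line and experiment. Signals near the lower limit restrict what can be read for Aurka and for Cdt1 late in WT.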
